A study of Mus musculus with 14 samples.

Results

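DNA replication machinery is described here through 47 genes, matched by gene name in the deposited count table of 55335 genes. All 47 were found, and all 47 passed the filter on low counts that left 21509 genes for testing. They were grouped by role: 11 genes of origin recognition and licensing, 7 of helicase activation, 8 of the polymerases and primase, 9 of the sliding clamp, its loader and the single-strand binding proteins, 2 of lagging strand maturation, 5 of nucleotide supply, and 5 of chromatin copying and fork-linked control. A cell copies its genome by loading the Mcm ring onto origins before S phase, switching the ring on as a helicase with Cdc45 and the GINS complex, and extending primed strands with polymerases held on DNA by the clamp Pcna. Most of these genes are transcribed as cells enter S phase, under E2F factors, so their RNA is abundant in dividing populations and scarce in resting ones. In adult bone marrow, erythroid and myeloid progenitors divide fast, and endothelial and stromal cells divide rarely.

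The 14 libraries came from bone marrow of mice that all carried the Cdh5 CRE and Rosa26 TdTomato alleles, in which Cre driven by the promoter of Cdh5, the gene of VE-cadherin, switches on a red fluorescent reporter in endothelial cells. Cells were sorted by flow cytometry as Lineage-, CD45- and TdTomato+, per the labels. The groups were untreated (4 libraries), 500 cGy total body irradiation from a caesium source (TBI, 5 libraries, replicates 1, 3, 4, 5 and 6), 20 µCi radioimmunotherapy with a non-targeting IgG antibody (IgG RIT, 3 libraries), and 20 µCi radioimmunotherapy aimed at CD45, the common leukocyte antigen (CD45 RIT, 2 libraries). The treated mice were harvested 8 days after treatment. The series title names astatine-211, an emitter of alpha particles. The labels give no age, no sex and no statement on pooled animals, so p-values measure only the spread between these samples.

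The label of endothelial cells was checked against its markers. Cdh5 itself had 0 to 6 counts in every library and 0 in all 5 RIT libraries, and the 15 endothelial markers together came to 27.1 to 232 CPM, that is counts scaled to a common library size. The 14 erythroid markers, among them the globins, came to 8731 to 15711 CPM in the untreated libraries and to 27428 to 192761 CPM in the treated ones. Total counts were 16412800 to 31077600 per library. The library of TBI replicate 6 stood apart from the other TBI libraries with 178829 CPM of erythroid markers against 27428 to 46544. The 2 CD45 RIT libraries were less alike than other replicates (Pearson r = 0.673 across genes), and CD45 RIT replicate 2 had counts in 17700 genes against at least 20994 in every other library. In the labels the untreated libraries and TBI replicates 1, 3, 4 and 5 carry library numbers 1 to 9, and TBI replicate 6 and all RIT libraries carry numbers 10 to 16. The labels name no sequencing batch, and for RIT against untreated the library number and the treatment cannot be told apart. In RIT against TBI, only TBI replicate 6 shares the number range of the RIT libraries.

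Start regions of the members are shown first, because the changes of most members had the same sign in each comparison and many replication genes are known E2F targets. RefSeq promoters of build GRCm38.p6, running from 250 bases before to 50 bases after each gene's start, were matched for 39 of the 47 members; those of Gmnn, Mcm4, Gins1, Gins2, Gins4, Prim2, Pole and Rfc2 were not matched. The RefSeq start lay within 1000 bases of the gene's start in the count table for 38 of the 39 members, and for Cdca7l it lay 39.6 kilobases downstream of that start, inside the gene. An E2F word (TTTCCCGC, TTTGGCGC, TTTCGCGC or TTTGCCGC, on either strand, overlaps allowed) was found in 15 of these 39 members. Counted over promoters, 33.3% of the 45 member promoters held a word, against 2.26% of all 32851 promoters in the table. The CCAAT box, on either strand, was in 62.2% of member promoters and in 37.4% of all, and the word TTTGAA was in 11.1% and 17.9%. Letters that match are a description of sequence and not a measured binding site. Below, capitals mark the E2F words in 3 members that hold at least 2 of them: the helicase subunits Mcm5 (chr8:75109259-75109558, plus strand) and Mcm6 (chr1:128359656-128359955, minus strand), and the clamp loader subunit Rfc3 (chr5:151651159-151651458, minus strand). The last sequence is Cdca7l (chr12:117843611-117843910, plus strand), in which none of these words was found. It is shown, at the RefSeq start and not at the count table's, because this was the member that fell after IgG RIT. Of the members called higher after IgG RIT, Cdt1, Mcm7 and Uhrf1 held a word. Orc6, Cdc45, Pcna, Rpa1, Rpa2, Rfc4, Rrm1, Rrm2, Tk1 and Chaf1a held none, and Gmnn and Gins4 were not matched. Pold1, with a negative fitted change after IgG RIT, held 1. Whether the words go with the changes was not tested.
Mcm5: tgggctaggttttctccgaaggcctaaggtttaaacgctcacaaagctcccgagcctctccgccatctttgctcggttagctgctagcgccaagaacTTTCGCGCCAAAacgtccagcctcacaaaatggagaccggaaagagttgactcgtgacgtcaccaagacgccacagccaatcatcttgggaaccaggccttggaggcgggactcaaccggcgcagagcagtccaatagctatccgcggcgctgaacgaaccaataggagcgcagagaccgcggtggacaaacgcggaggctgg
Mcm6: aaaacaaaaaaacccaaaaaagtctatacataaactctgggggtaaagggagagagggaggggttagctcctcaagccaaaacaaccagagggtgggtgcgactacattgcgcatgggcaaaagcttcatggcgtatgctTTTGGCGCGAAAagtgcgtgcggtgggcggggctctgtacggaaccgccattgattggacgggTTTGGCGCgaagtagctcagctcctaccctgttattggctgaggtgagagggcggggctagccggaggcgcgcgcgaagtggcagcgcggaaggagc
Rfc3: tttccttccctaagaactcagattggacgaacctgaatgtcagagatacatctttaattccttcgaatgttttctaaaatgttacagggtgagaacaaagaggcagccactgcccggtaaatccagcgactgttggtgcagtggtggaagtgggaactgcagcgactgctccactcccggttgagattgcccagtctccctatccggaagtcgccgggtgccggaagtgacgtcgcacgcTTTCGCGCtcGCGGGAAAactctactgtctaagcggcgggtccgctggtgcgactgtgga
Cdca7l: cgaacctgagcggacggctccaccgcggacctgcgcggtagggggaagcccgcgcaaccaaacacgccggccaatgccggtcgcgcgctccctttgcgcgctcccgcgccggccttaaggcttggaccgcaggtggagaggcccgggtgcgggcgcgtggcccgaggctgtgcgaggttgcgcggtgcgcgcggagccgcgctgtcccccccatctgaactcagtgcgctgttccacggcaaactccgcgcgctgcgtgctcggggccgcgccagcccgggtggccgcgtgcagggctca

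Together the 47 genes took 1.16% to 1.37% of all counts in the untreated libraries, 1.54% to 1.82% after TBI, 1.53% to 1.60% after IgG RIT, and 0.318% and 0.113% in the 2 CD45 RIT libraries. The treated groups did not overlap the untreated group in this share, with TBI and IgG RIT above it and CD45 RIT below it. Rrm2 alone, the small subunit of ribonucleotide reductase, made up 5.45% to 8.48% of the members' counts in untreated libraries, 11.4% to 20.1% after TBI and 17.1% to 18.9% after IgG RIT. Without Rrm2 the sum was 10948 to 12725 CPM untreated, 12273 to 15826 after TBI and 12404 to 13250 after IgG RIT, so that these groups overlapped on total counts. On library sizes scaled by TMM, the scale of the tests, they did not: the sum without Rrm2 was then 9042 to 11084 CPM untreated, 12533 to 14462 after TBI and 14863 to 15845 after IgG RIT. Levels per length in untreated libraries were highest for Rrm2 (283 ± 66.0 CPM per kilobase, SD, n = 4), then for Fen1 (161 ± 22.8), Pcna (155 ± 18.6) and Mcm6 (152 ± 19.7), and the last 3 did not differ beyond their spread. The lowest level was that of Ticrr (2.86 ± 0.750 CPM per kilobase). Other sums are on total counts, while the levels of single genes in the rest of the text are on library sizes scaled by TMM. Statements on overlap of groups for single genes hold on the TMM scale. On that scale 35 to 39 members lay above every untreated library in TBI replicate 6 and in each IgG RIT library. Below every untreated library were 3 to 7. On total counts these were 17 to 21 above and 12 to 16 below. In the other TBI libraries 32 to 43 members lay above with TMM and 29 to 38 on total counts.

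**Figure D1:**
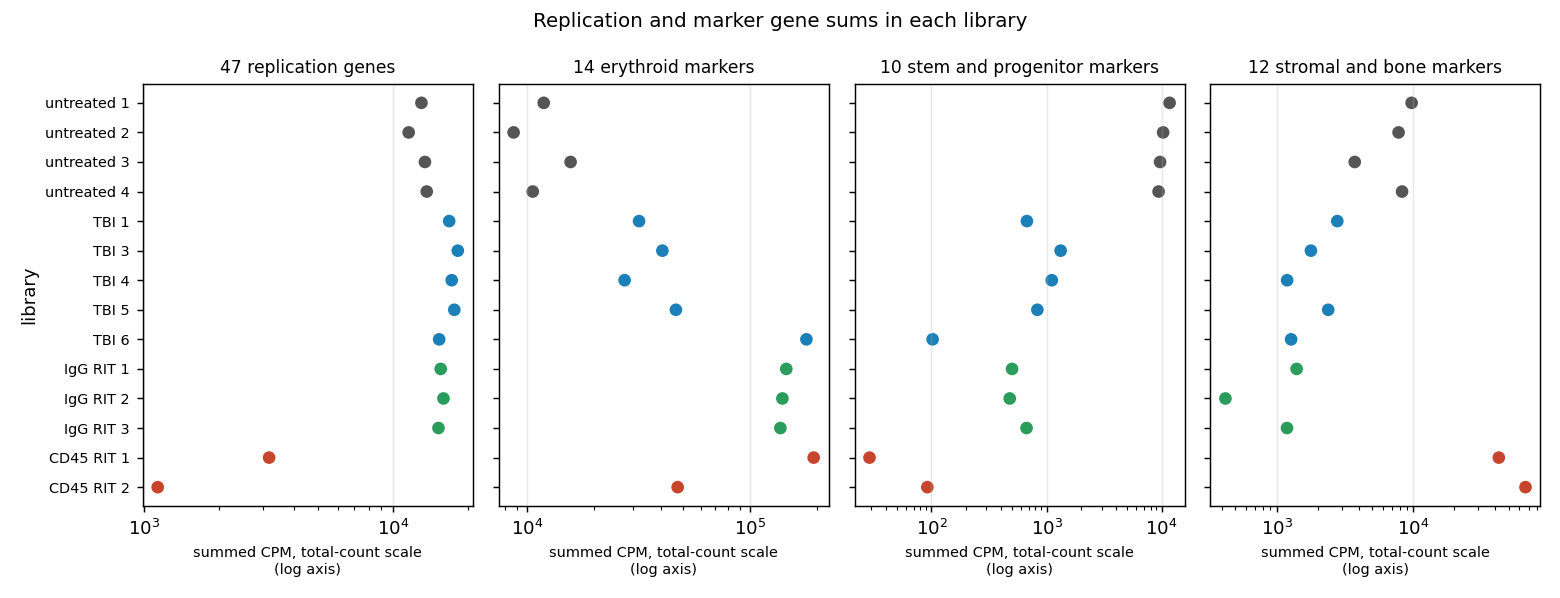
Summed CPM (total-count scale, log axis) of the 47 replication genes and of 3 marker lists in each of the 14 libraries; each point is 1 library. Replication genes lie above the untreated range after TBI and IgG RIT and fall to 3178 and 1132 CPM in the CD45 RIT libraries, while erythroid markers are higher than untreated in every treated library.

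After TBI, 2 of the 47 genes rose and none fell: Rrm1, the large subunit of ribonucleotide reductase, and Uhrf1, which carries DNA methylation onto the copied strand. Across all tested genes 0.921% were called higher and 3.38% lower (4.31% in all). Positive log2 fold changes were found for 41 of 47 members, their median was 0.42 against -0.16 over all tested genes, and 16 members had an unadjusted p under 0.05. In 31 members the TBI and untreated libraries did not overlap (19.1% of all tested genes), and Rfc2 and Rpa3 were the ones among them with TBI below untreated. The count of calls differed between fits. When both CD45 RIT libraries were left out, an alternative chosen after seeing the data, 29 members rose and Rfc2 fell after TBI, with 8.04% of genes called higher and 7.61% lower. Among libraries numbered 1 to 9, which hold no RIT library and not TBI replicate 6, the same counts were 29 and 1 (9.45% and 12.4% of genes). DESeq2 on all libraries called 11 higher and none lower (4.35% and 6.94% of genes with an adjusted p). Without untreated replicate 1 or without untreated replicate 2 the edgeR count of higher members was 1 (0.325% and 0.237% of genes), without CD45 RIT replicate 1 it was 19 (4.36%), and without CD45 RIT replicate 2 it was 25 (5.52%).

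After IgG RIT, 15 members rose and 1 fell, against 5.75% and 10.7% of all tested genes (16.4% in all). Members that rose came from licensing (4 of 11), helicase activation (2 of 7), the clamp group (4 of 9), nucleotide supply (3 of 5) and chromatin copying (2 of 5). None came from the 8 polymerase and primase genes or from Fen1 and Lig1. Of the 22 members with under 10 counts in CD45 RIT replicate 2, 1 was called in either direction, against 15 of the other 25. The median log2 fold change of the members was 0.58 against -0.42 over all tested genes, and 37 members had groups that did not overlap (43.1% of tested genes). Scaling moved these values. Without scaling factors the median of all genes was -0.94 and that of the members 0.06, so that the members stood 1.00 above all genes under either choice, but 2 members then rose and 1 fell (3.42% and 20.1% of genes). With no CD45 RIT library in the model, 37 members rose and 1 fell (16.8% and 20.3% of tested genes). The 16 genes called with all libraries were among the 38. The 37 held all 11 licensing genes, 6 of 7 helicase activators, 5 of 8 polymerase and primase genes and 6 of 9 clamp genes. They also held Fen1 and Lig1, 4 of 5 nucleotide genes and 3 of 5 chromatin genes. Leaving out any 1 of the untreated or IgG RIT libraries left 6 to 9 members higher (3.12% to 4.12% of genes), while leaving out CD45 RIT replicate 1 gave 32 (11.2%) and CD45 RIT replicate 2 gave 36 (13.7%).

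After CD45 RIT, 31 members fell and none rose, against 18.6% and 14.5% of all tested genes (33.1% in all). All 47 fitted changes were negative, with a median log2 fold change of -2.07 against -0.37 over all genes; 36 members had an unadjusted p under 0.05. In 45 members both libraries lay below every untreated library (groups did not overlap in 47.3% of tested genes), and Rrm2 and Ticrr were the exceptions. DESeq2 called none higher either (20.3% of genes), and 32 lower (22.1%). Against IgG RIT, given the same activity on another antibody, 35 members fell after CD45 RIT and none rose (17.5% and 20.2% of tested genes, 37.7% in all), the groups of all 47 did not overlap (51.3% of tested genes), and the median was -2.91. Against TBI, 36 fell and none rose (19% and 19.6%, 38.6% in all), again with no overlap in any member (45.8% of tested genes) and a median of -2.64. With the 3 members that had no counts above the floor entered at their bounds, the medians with both libraries did not move. The size of the fall differed between the 2 CD45 RIT libraries. Without replicate 1 the members' median log2 fold changes were -6.83 against untreated, -6.77 against IgG RIT and -6.33 against TBI, beside -1.63, -1.08 and -1.51 over all tested genes. Without replicate 2 they were -1.71, -2.54 and -2.16, beside -0.55, -0.36 and -0.60. In these fits, in which the lone library is assumed to vary like the other groups, the lower counts without replicate 1 were 45, 47 and 47 (30.9%, 29.7% and 30.8% of genes), and without replicate 2 they were 40, 47 and 44 (17.6%, 18.5% and 18.7%). Among libraries numbered 10 to 16, 16 members fell after CD45 RIT against IgG RIT and none rose (2.16% and 3.35% of tested genes), and against the 1 TBI library in that range none fell, with 0% of genes called. In bulk RNA, fewer cells of a replicating type and less RNA per cell cannot be told apart.

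Between IgG RIT and TBI, edgeR called no member higher and none lower, with 0.0697% and 0.172% of tested genes called (0.242% in all). Of the members, 35 had a positive change, 6 had an unadjusted p under 0.05, and 15 had groups that did not overlap (16.8% of tested genes). DESeq2 called 3 members higher and 1 lower, against 3.58% and 6.41% of genes with an adjusted p. Tk1 and Cdca7l came closest, at 1.00 ± 0.21 and -1.43 ± 0.30 on the log2 scale (SE, edgeR adjusted p = 0.0657 for each). With no CD45 RIT library in the model, 7 members were higher after IgG RIT than after TBI (5.1% of genes), namely Cdc45, Rfc2, Rpa2, Fen1, Lig1, Tyms and Tk1, and Cdca7l was lower (7.5% of genes). Without TBI replicate 6 alone, 4 were higher and 1 was lower (3.76% and 5.68% of genes). In that fit library number and treatment cannot be told apart, and in the others only TBI replicate 6 separates them. Among libraries numbered 10 to 16, which hold 1 TBI library, the members' median log2 fold change was 0.03 against 0.07 over all tested genes. The comparisons with untreated share the same 4 control libraries, and those with CD45 RIT share the same 2, so their results are not independent of each other.

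**Figure D2:**
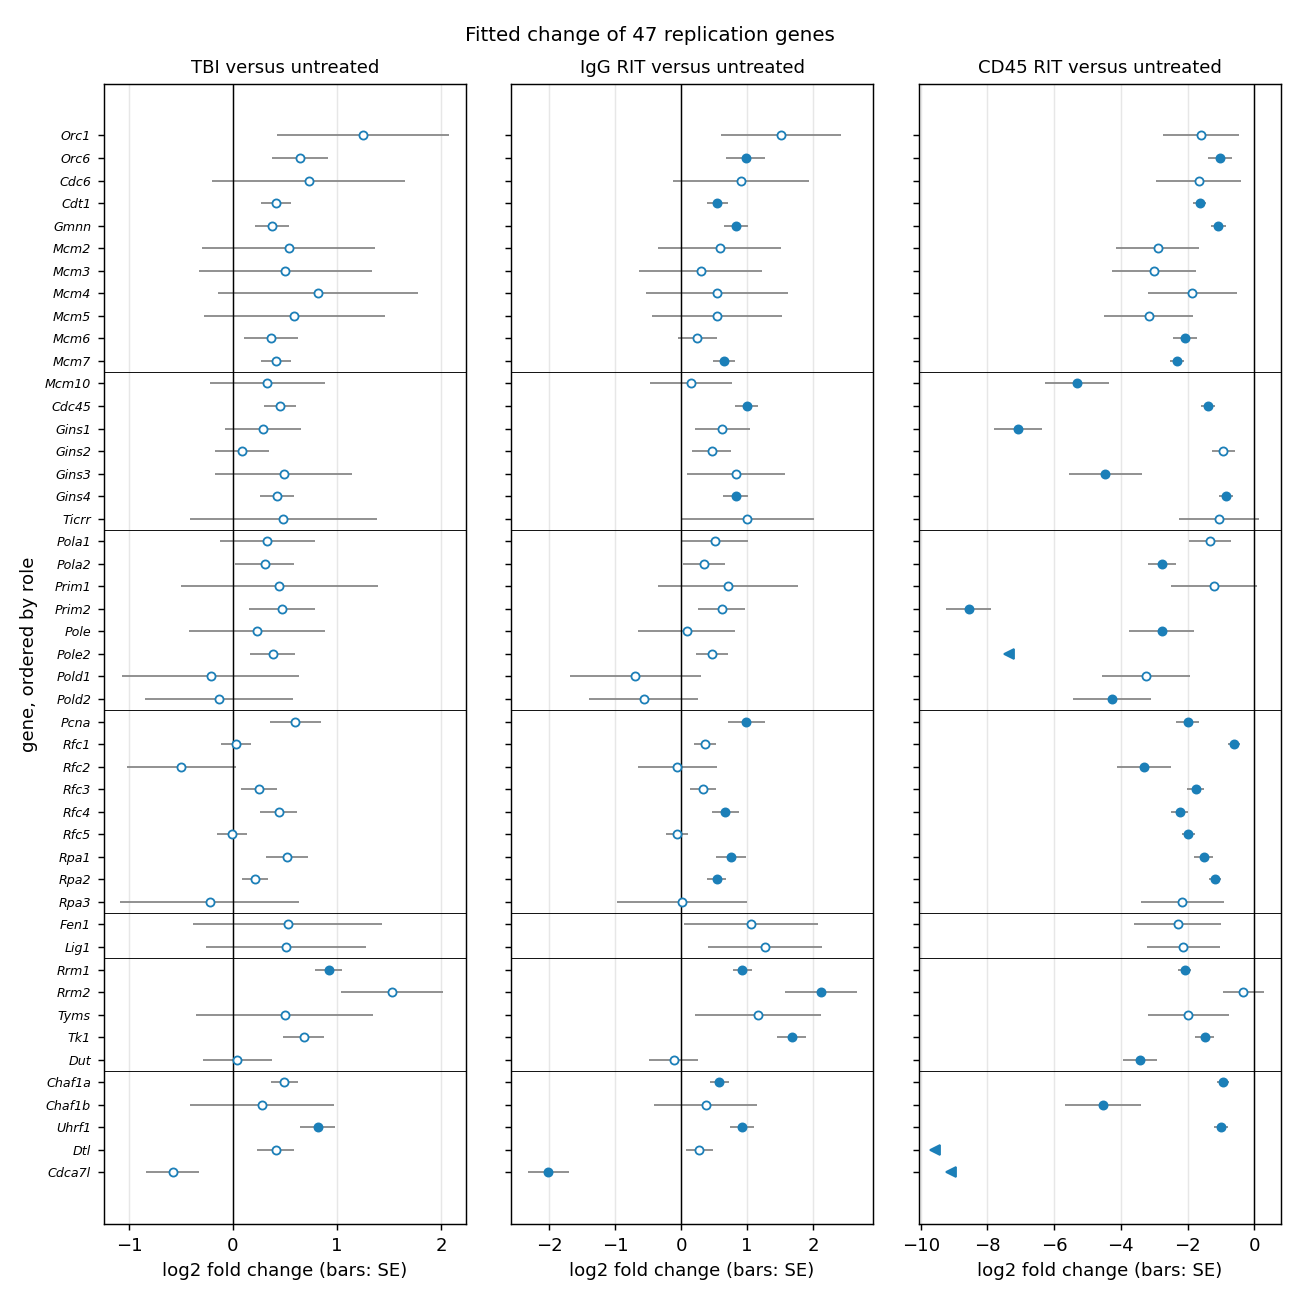
Fitted log2 fold change (horizontal axis) of the 47 genes, ordered by role, in the 3 comparisons with untreated, with bars for the SE; filled points passed an edgeR adjusted p of 0.05 and open points did not, and triangles are lower bounds on the size of a fall for genes with no count above the floor in either CD45 RIT library. TBI and IgG RIT values lie mostly right of 0 and every CD45 RIT value lies left of 0; the horizontal scales differ between panels.

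In 10 of the 11 licensing genes the TBI and untreated libraries did not overlap (19.1% of all tested genes), although none of the 11 passed the test in that comparison. Values in each library follow in the order of the replicate numbers. Mcm2 and Mcm5 are subunits of the ring-shaped helicase that is loaded at origins. Mcm2 had 533, 373, 490.0 and 578 CPM in the untreated libraries, 691, 731, 735, 670.5 and 745 after TBI, 789, 731 and 698 after IgG RIT, and 132 and 0.289 after CD45 RIT. Mcm5 stood at 495, 422, 502 and 587 CPM in the untreated libraries, 786, 735, 804, 702 and 748 after TBI, 802, 695 and 696 after IgG RIT, and 112 and 0.0962 after CD45 RIT. On the TMM scale every TBI and IgG RIT library lay above every untreated library for both genes. In the 2 CD45 RIT libraries both genes lay below the untreated range, near 0 in the second. Their log2 fold changes were 0.53 ± 0.83 (SE, edgeR adjusted p = 0.835) and 0.59 ± 0.87 (SE, edgeR adjusted p = 0.823) after TBI, and 0.58 ± 0.93 (SE, edgeR adjusted p = 0.708) and 0.54 ± 0.98 (SE, edgeR adjusted p = 0.742) after IgG RIT. Neither passed with all libraries in the model; CD45 RIT replicate 2 had 6 and 2 counts for these genes. In the model with no CD45 RIT library, Mcm2 was at 0.66 ± 0.14 (adjusted p = 0.00973) and Mcm5 at 0.72 ± 0.12 (adjusted p = 0.00358) after TBI, and at 0.78 ± 0.16 (0.00279) and 0.74 ± 0.14 (0.00165) after IgG RIT.

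Mcm7, another subunit of the ring, was lower in both CD45 RIT libraries but far from 0 in either. Mcm7 was found at 452, 423, 564 and 597 CPM in the untreated libraries, 644, 675, 751, 622 and 701 after TBI, 808, 744 and 837 after IgG RIT, and 119.6 and 84.8 after CD45 RIT. The treated groups did not overlap the untreated one. It rose by 0.65 ± 0.17 (SE, edgeR adjusted p = 0.0215) after IgG RIT and changed by -2.32 ± 0.21 (SE, edgeR adjusted p = 1.52e-05) after CD45 RIT, the largest called fall among licensing genes; the rise was lost without untreated replicate 1 or 2 or IgG RIT replicate 1 or 3. Mcm6 averaged 711 ± 91.7 CPM (SD, n = 4) untreated and 916 ± 67.7 CPM (n = 5) after TBI, and it too fell after CD45 RIT, with a log2 fold change of -2.07 ± 0.37 (SE, edgeR adjusted p = 0.00142). Mcm3 and Mcm4 had means of 681 ± 38.4 CPM and 428 ± 29.3 CPM after TBI against 480.2 ± 63.3 CPM and 243 ± 46.7 CPM untreated, with no overlap between these groups.

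Loading of the ring needs Orc1 and Orc6 of the origin recognition complex, with Cdc6 and Cdt1. Orc6 had 119, 106, 119 and 120.1 CPM in the untreated libraries, 164, 166, 178, 165 and 229.8 after TBI, 247, 231 and 206 after IgG RIT, and 87.0 and 25.8 after CD45 RIT. Cdc6 measured 265, 152, 181 and 219.7 CPM in the untreated libraries, 268, 365, 330.1, 319 and 411 after TBI, 458, 364 and 333 after IgG RIT, and 129 and 0.0481 after CD45 RIT. Cdt1 was at 137, 151, 145 and 166 CPM in the untreated libraries, 182, 185, 259.5, 177 and 196 after TBI, 227, 226 and 204 after IgG RIT, and 46.8 and 49.8 after CD45 RIT. In all 3 genes TBI and IgG RIT libraries lay above the untreated ones, and CD45 RIT libraries below. Orc6 rose after IgG RIT by 0.98 ± 0.30 (SE, edgeR adjusted p = 0.0439) and Cdt1 by 0.55 ± 0.16 (SE, edgeR adjusted p = 0.0354). Both calls were lost when any 1 untreated or IgG RIT library was left out, as was that of Orc6 without any TBI library but replicate 6 and that of Cdt1 without TBI replicate 3. Cdc6 was at 0.91 ± 1.03 (SE, edgeR adjusted p = 0.578) after IgG RIT, with 1 count in CD45 RIT replicate 2 against 2120 in replicate 1. Orc1, the subunit whose level follows the cell cycle, averaged 42.6 ± 14.6 CPM (SD, n = 4) untreated, 101 ± 21.3 CPM after TBI (n = 5) and 122 ± 16.5 CPM after IgG RIT (n = 3), the highest fitted change of the group at 1.51 ± 0.92 without passing the test. Orc1 passed in both comparisons once CD45 RIT libraries were left out, at 1.39 ± 0.24 after TBI (adjusted p = 0.0042) and at 1.71 ± 0.27 after IgG RIT (edgeR, adjusted p = 0.000732).

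Geminin, encoded by Gmnn, holds Cdt1 inactive so that origins are not licensed again. Gmnn was at 134, 172, 168 and 159 CPM in the untreated libraries, 167, 181, 213, 188 and 281 after TBI, 287, 294 and 268 after IgG RIT, and 70.9 and 79.2 after CD45 RIT. The TBI libraries overlapped the untreated ones, and the IgG RIT libraries lay above all untreated libraries and above all TBI libraries but replicate 6. Gmnn rose by 0.84 ± 0.18 (SE, edgeR adjusted p = 0.0103) after IgG RIT and changed by -1.08 ± 0.22 (SE, edgeR adjusted p = 0.00303) after CD45 RIT, where both libraries were below all others. When the CD45 RIT libraries were left out, 10 of the 11 licensing genes rose after TBI and all 11 after IgG RIT (8.04% and 16.8% of tested genes).

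**Figure D3:**
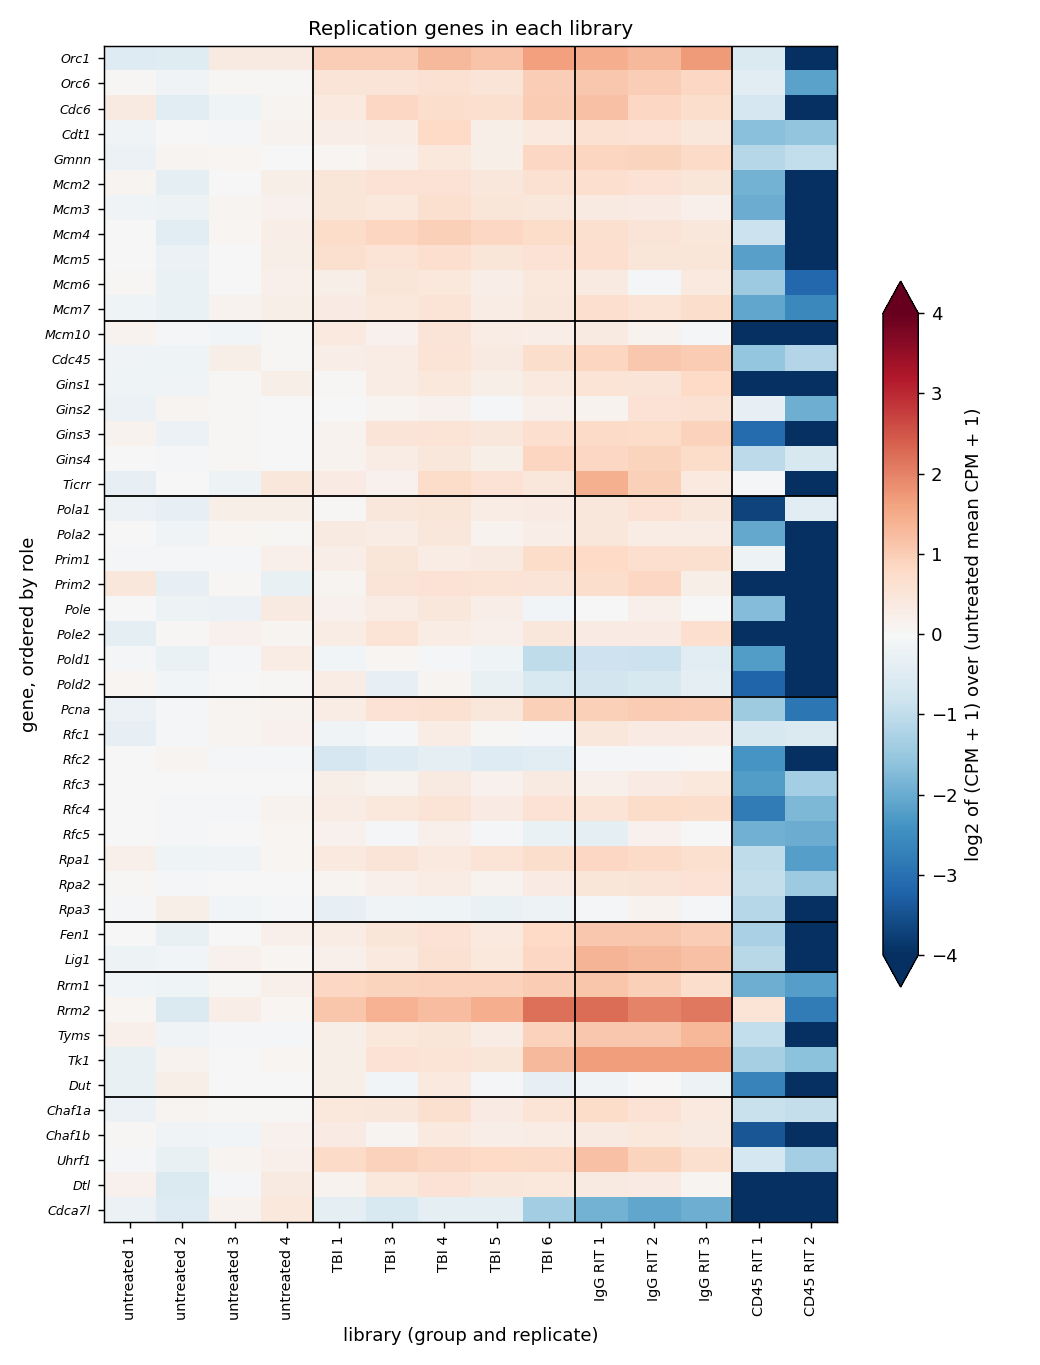
Log2 of (CPM + 1) over the untreated mean (colour scale, limited at 4 either way) for the 47 genes (vertical axis, by role) in the 14 libraries (horizontal axis). Red marks most genes in TBI and IgG RIT libraries, with blue exceptions such as Cdca7l, Pold1, Pold2 and Rfc2, and in CD45 RIT replicate 2 the dark cells are genes with almost no counts, beside others that are lower than untreated but still counted.

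Helicase activation joins Cdc45 and the 4 GINS subunits to the loaded ring, with Ticrr and Mcm10 as helpers. Cdc45 had 85.7, 82.7, 111 and 96.3 CPM in the untreated libraries, 113, 116, 139, 120.3 and 154 after TBI, 173, 197 and 192 after IgG RIT, and 31.5 and 40.8 after CD45 RIT. IgG RIT libraries lay above all TBI libraries, which lay above all untreated ones, with CD45 RIT lowest. Cdc45 rose by 1.00 ± 0.17 (SE, edgeR adjusted p = 0.00416) after IgG RIT, was at 0.45 ± 0.16 (SE, edgeR adjusted p = 0.129) after TBI, and changed by -1.38 ± 0.21 (SE, edgeR adjusted p = 0.000524) after CD45 RIT. Gins4, with an SD of 2.73 CPM over the 4 untreated libraries, averaged 112 ± 2.73 CPM there and 198 ± 10.2 CPM (n = 3) after IgG RIT, and rose by 0.83 ± 0.18 (SE, edgeR adjusted p = 0.0115).

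Mcm10 and Gins1 were nearly absent from both CD45 RIT libraries. Mcm10 stood at 99.8, 85.9, 84.3 and 92.7 CPM in the untreated libraries, 118, 103, 130.3, 111 and 108 after TBI, 117, 99.9 and 85.8 after IgG RIT, and 4.51 and 0.0962 after CD45 RIT. Gins1 was at 42.0, 43.2, 49.7 and 56.0 CPM in the untreated libraries, 49.3, 59.0, 64.1, 56.2 and 63.0 after TBI, 69.6, 67.9 and 83.0 after IgG RIT, and 0.671 and 0.0481 after CD45 RIT. Mcm10 levels in IgG RIT overlapped those of untreated libraries, and for both genes CD45 RIT libraries lay far below every other library. Mcm10 changed by -5.31 ± 0.96 (SE, edgeR adjusted p = 0.00148) and Gins1 by -7.09 ± 0.72 (SE, edgeR adjusted p = 3.15e-05) against untreated. In counts these were 74 and 2 for Mcm10 and 11 and 1 for Gins1. Gins3 had 51 and 0 counts and a change of -4.47 ± 1.10 (SE, edgeR adjusted p = 0.00885). Ticrr, which brings firing factors to the origin, kept 452 counts in CD45 RIT replicate 1 and had 0 in replicate 2, and its change of -1.06 ± 1.21 did not pass (edgeR adjusted p = 0.509). Gins2 had 1587 and 627 counts there, and its change of -0.93 ± 0.35 did not pass either (edgeR adjusted p = 0.0605). In all, 5 of 7 genes fell after CD45 RIT, against 18.6% of all tested genes.

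Among the polymerases and primase, which start and extend the new strands, none of 8 passed the test after TBI or IgG RIT. Pola1 was at 67.2, 63.2, 93.1 and 94.7 CPM in the untreated libraries, 81.6, 109, 111, 98.6 and 99.6 after TBI, 109, 120.3 and 110.2 after IgG RIT, and 5.18 and 58.0 after CD45 RIT. Pole had 59.0, 50.6, 49.0 and 74.3 CPM in the untreated libraries, 65.8, 71.1, 80.1, 70.2 and 54.1 after TBI, 59.2, 66.9 and 58.9 after IgG RIT, and 16.9 and 0.241 after CD45 RIT. Pola1 is the catalytic subunit of polymerase alpha and Pole that of polymerase epsilon, which copies the leading strand. Pola1 libraries after IgG RIT lay above the untreated ones, and Pole groups overlapped except for CD45 RIT. Pola1 had 85 counts in CD45 RIT replicate 1 and 1206 in replicate 2, while 6 of the other polymerase and primase genes had under 10 counts in replicate 2. Its change was -1.33 ± 0.62 (SE, edgeR adjusted p = 0.116), while Pole fell, by -2.77 ± 0.98 (SE, edgeR adjusted p = 0.0459), a call that was lost whenever any untreated, TBI or IgG RIT library was left out.

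Pole2 stood at 23.1, 30.5, 33.7 and 31.9 CPM in the untreated libraries, 36.5, 44.4, 36.8, 34.7 and 41.5 after TBI, 37.3, 38.0 and 48.1 after IgG RIT, and 0 and 0 after CD45 RIT. Pole2, the second subunit of polymerase epsilon, had no count in either CD45 RIT library and was at least 163-fold lower there than untreated (floor of 3 counts per library, edgeR adjusted p = 9.87e-07). Prim2, the large subunit of primase, had 7 and 1 counts and a change of -8.56 ± 0.67 (SE, edgeR adjusted p = 6.21e-06). Pold1 and Pold2 are subunits of polymerase delta, which copies the lagging strand, and their fitted changes after IgG RIT were negative where those of most members were positive. Pold1 had 246 to 364 CPM untreated, 146 to 310.1 after TBI and 162 to 221 after IgG RIT, with no overlap between the first and the last. Pold2 had 169 to 194, 119.5 to 225 and 110.3 to 144 CPM. Their log2 fold changes after IgG RIT were -0.70 ± 0.99 and -0.57 ± 0.82 and did not pass (edgeR adjusted p = 0.668 and 0.674), nor did they with no CD45 RIT library (adjusted p = 0.0845 and 0.126). In that model 2 polymerase and primase genes rose after TBI and 5 after IgG RIT (8.04% and 16.8% of tested genes).

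The clamp Pcna tethers polymerases to DNA and is opened by the loader Rfc1 to Rfc5, while Rpa1 to Rpa3 cover exposed single strands. Pcna was at 313, 359.8, 404 and 408 CPM in the untreated libraries, 461, 559, 568, 503 and 719.9 after TBI, 721, 758 and 735 after IgG RIT, and 138 and 49.0 after CD45 RIT. All 3 IgG RIT libraries lay above all TBI libraries, TBI replicate 6 came close to them, and both CD45 RIT libraries were lowest. Pcna rose by 0.99 ± 0.28 (SE, edgeR adjusted p = 0.0294) after IgG RIT, was at 0.60 ± 0.25 (SE, edgeR adjusted p = 0.212) after TBI, and changed by -1.99 ± 0.35 (SE, edgeR adjusted p = 0.00121) after CD45 RIT. The IgG RIT call was lost when any 1 untreated or IgG RIT library was left out. Rpa1, Rpa2 and Rfc4 also rose after IgG RIT, by 0.75 ± 0.23, 0.54 ± 0.14 and 0.67 ± 0.20 (edgeR adjusted p = 0.0407, 0.0231 and 0.0419), and each of these calls was lost without any 1 of the IgG RIT libraries.

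The loader subunits had changes of either sign. Rfc3 had 92.2, 93.4, 93.4 and 90.7 CPM in the untreated libraries, 109, 101, 118, 103 and 119 after TBI, 107, 116 and 125 after IgG RIT, and 19.0 and 35.7 after CD45 RIT. Rfc2 stood at 444, 470.0, 415 and 414 CPM in the untreated libraries, 271, 304, 341, 304 and 324 after TBI, 419.6, 411 and 427 after IgG RIT, and 84.3 and 3.85 after CD45 RIT. For Rfc3, TBI and IgG RIT libraries lay above the untreated range of 90.7 to 93.4 CPM, and for Rfc2 all TBI libraries lay below all untreated and all IgG RIT libraries. With all libraries Rfc2 was at -0.50 ± 0.52 (SE, edgeR adjusted p = 0.719) after TBI, and with no CD45 RIT library at -0.37 ± 0.11 (adjusted p = 0.0376). Rfc3 was at 0.33 ± 0.20 (SE, edgeR adjusted p = 0.26) after IgG RIT. Rfc5 averaged 229.9 ± 10.1 CPM untreated (SD, n = 4), 229 ± 30.9 CPM after TBI (n = 5) and 221 ± 40.6 CPM after IgG RIT (n = 3), with log2 fold changes of -0.01 ± 0.14 and -0.06 ± 0.16. After CD45 RIT, 8 of the 9 genes fell, against 18.6% of all tested genes. The largest called fall was that of Rfc2 at -3.31 ± 0.81 (SE, edgeR adjusted p = 0.00889), and Rpa3, with 611 and 0 counts, did not pass.

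Lagging strand pieces are trimmed by the flap nuclease Fen1 and sealed by the ligase Lig1. Lig1 had 252, 272, 330.1 and 309.7 CPM in the untreated libraries, 332, 382, 446, 392 and 522 after TBI, 744, 709 and 655 after IgG RIT, and 133 and 0.674 after CD45 RIT. IgG RIT libraries exceeded every TBI library and TBI libraries every untreated one. Fen1 followed the same order, at 390.1 ± 55.3 CPM (SD, n = 4) untreated, 561 ± 78.1 CPM (n = 5) after TBI and 810.2 ± 26.0 CPM (n = 3) after IgG RIT. CD45 RIT replicate 1 kept 2179 counts of Lig1 and 2615 of Fen1, and replicate 2 had 14 and 2. Neither gene passed in a comparison with untreated, the changes after IgG RIT being 1.27 ± 0.87 (SE, edgeR adjusted p = 0.33) and 1.05 ± 1.02 (SE, edgeR adjusted p = 0.504). In the model with no CD45 RIT library Lig1 was at 1.47 ± 0.18 (adjusted p = 0.000323) and Fen1 at 1.25 ± 0.17 (adjusted p = 0.000433) after IgG RIT.

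The largest called rises, those of Rrm2 and Tk1, were in nucleotide supply. Rrm2 was at 837, 521, 945 and 836 CPM in the untreated libraries, 1681, 2043, 1835, 2164 and 3633 after TBI, 3694, 3117 and 3423 after IgG RIT, and 1143 and 112 after CD45 RIT. Rrm2 (GRCm38 chr12:24708241-24714146) was higher in every TBI and IgG RIT library than in any untreated one, and TBI replicate 6 stood with the IgG RIT libraries. On the TMM scale CD45 RIT replicate 1 lay above the untreated range while replicate 2 lay below it. On total counts replicate 1 had 804 CPM, inside the untreated range of 631 to 1142. Rrm2 rose by 2.12 ± 0.54 (SE, edgeR adjusted p = 0.0216) after IgG RIT, a call lost without untreated replicate 2 or 4 or IgG RIT replicate 1. After TBI it was at 1.53 ± 0.49 (SE, edgeR adjusted p = 0.105). After CD45 RIT it was at -0.32 ± 0.62 (SE, edgeR adjusted p = 0.7), and without replicate 2 at 0.50. Rrm1 is the partner subunit. Rrm1 had 463, 446, 525 and 579.9 CPM in the untreated libraries, 887, 939, 947, 958 and 1030.4 after TBI, 1089, 969 and 817 after IgG RIT, and 128 and 108 after CD45 RIT. All TBI and IgG RIT libraries were above, and the CD45 RIT libraries below, the untreated range, and the TBI and IgG RIT ranges overlapped. Rrm1 rose by 0.92 ± 0.13 (SE, edgeR adjusted p = 0.00299) after TBI and by 0.93 ± 0.15 (SE, edgeR adjusted p = 0.00286) after IgG RIT, calls that held whichever library was left out, and changed by -2.09 ± 0.19 (SE, edgeR adjusted p = 1.24e-05) after CD45 RIT.

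Thymidine nucleotides come from Tk1, the salvage kinase, and Tyms, the synthase of the de novo route, and Dut removes deoxyuridine triphosphate. Tk1 was at 179, 241, 221 and 231 CPM in the untreated libraries, 257, 326, 321, 303 and 537 after TBI, 701, 696 and 692 after IgG RIT, and 85.7 and 69.4 after CD45 RIT. The 3 IgG RIT libraries agreed within an SD of 4.12 CPM and exceeded all TBI libraries, of which replicate 6 was highest. Tk1 (GRCm38 chr11:117815526-117826092) rose by 1.68 ± 0.22 (SE, edgeR adjusted p = 0.00184) after IgG RIT, was at 0.68 ± 0.20 (SE, edgeR adjusted p = 0.0768) after TBI, and changed by -1.49 ± 0.27 (SE, edgeR adjusted p = 0.00156) after CD45 RIT. Tyms had 279, 221, 234 and 234 CPM in the untreated libraries, 282, 325, 338, 298 and 463 after TBI, 508, 516 and 608 after IgG RIT, and 123 and 0.193 after CD45 RIT. Dut stood at 254, 369, 313 and 318 CPM in the untreated libraries, 366, 294, 408, 296 and 251 after TBI, 287, 308 and 275 after IgG RIT, and 48.4 and 10.1 after CD45 RIT. Tyms kept the order of Tk1, with IgG RIT above TBI above untreated, and Dut groups overlapped except for CD45 RIT. Tyms was at 1.17 ± 0.96 (SE, edgeR adjusted p = 0.424) after IgG RIT, with 4 counts in CD45 RIT replicate 2. Dut was at -0.11 ± 0.38 (SE, edgeR adjusted p = 0.867) after IgG RIT, a sign that turned under other scalings, and it had the largest called fall of this role after CD45 RIT, -3.42 ± 0.51 (SE, edgeR adjusted p = 0.000454).

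**Figure D4:**
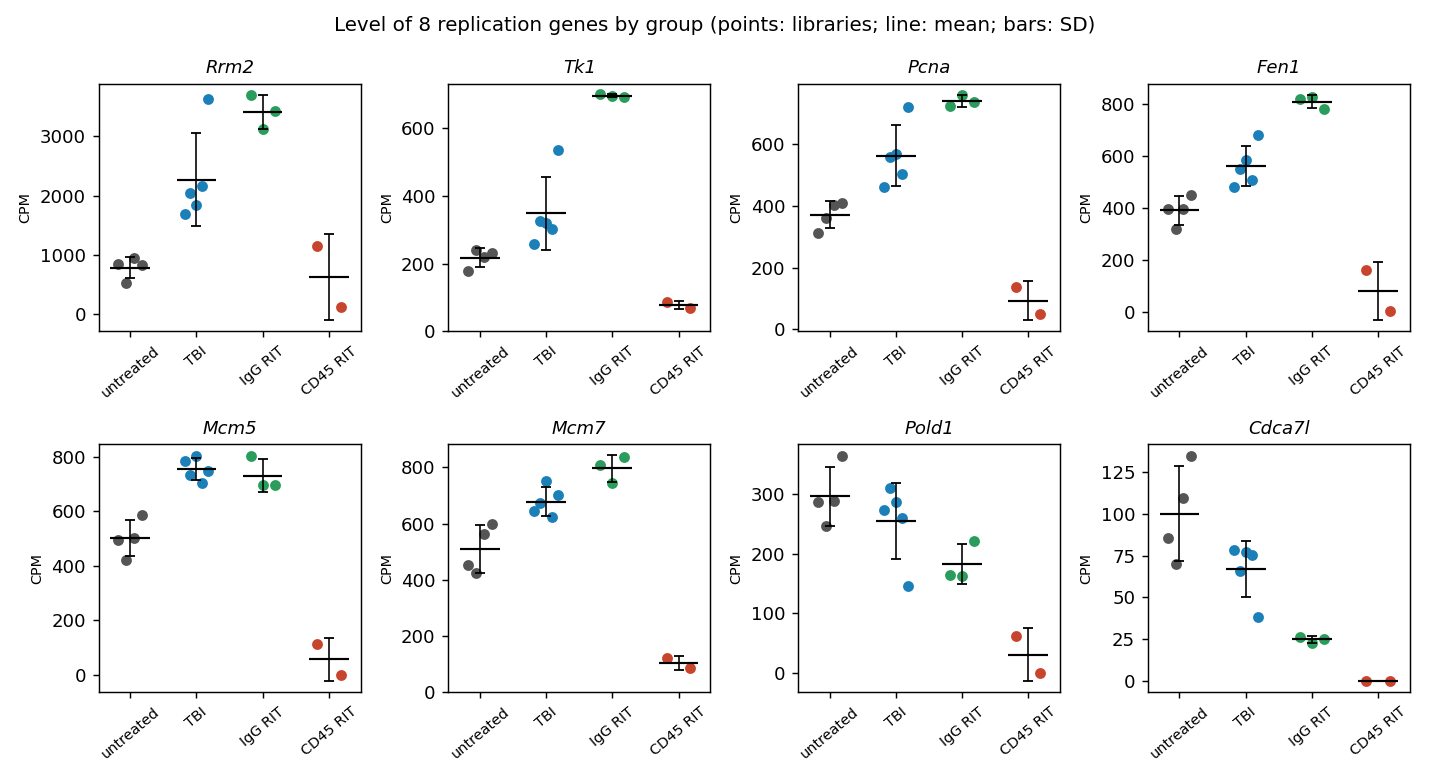
CPM (linear axis, TMM-scaled) of 8 replication genes by group; points are libraries, horizontal lines the group mean and bars the SD (4 untreated, 5 TBI, 3 IgG RIT and 2 CD45 RIT libraries). Rrm2, Tk1, Pcna and Fen1 step up from untreated over TBI to IgG RIT, Mcm5 and Mcm7 are higher in both, Pold1 and Cdca7l are lower after IgG RIT, and CD45 RIT libraries are lowest in all but Rrm2.

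Copied chromatin is rebuilt by the Chaf1a and Chaf1b subunits of CAF-1, and Uhrf1 brings the maintenance methyltransferase to copied DNA. Uhrf1 was at 288, 242, 320.0 and 341 CPM in the untreated libraries, 503, 559, 526, 522 and 509.5 after TBI, 668, 557 and 469 after IgG RIT, and 183 and 116 after CD45 RIT. TBI and IgG RIT libraries lay above, and CD45 RIT libraries below, the untreated range. Uhrf1 rose by 0.82 ± 0.17 (SE, edgeR adjusted p = 0.0169) after TBI and by 0.92 ± 0.18 (SE, edgeR adjusted p = 0.007) after IgG RIT; the TBI call was lost without untreated replicate 1 or 2. Chaf1a rose by 0.58 ± 0.14 (SE, edgeR adjusted p = 0.0189) after IgG RIT and was at 0.49 ± 0.13 (SE, edgeR adjusted p = 0.0509) after TBI, and the rise was lost without untreated replicate 1 or IgG RIT replicate 1 or 2. Chaf1b averaged 154 ± 15.2 CPM (n = 4) untreated and 199 ± 4.91 CPM (n = 3) after IgG RIT, and had 218 and 1 counts in the CD45 RIT libraries. Dtl, the receptor of the ligase that destroys Cdt1 in S phase, had 2 and 3 counts there and was at least 761-fold lower than untreated (edgeR adjusted p = 1.16e-07).

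Cdca7l, a relative of the chromatin factor Cdca7, was the member called lower after IgG RIT. Cdca7l had 85.9, 70.3, 109.7 and 135 CPM in the untreated libraries, 78.3, 65.9, 77.3, 75.5 and 38.0 after TBI, 26.4, 22.8 and 25.2 after IgG RIT, and 0 and 0 after CD45 RIT. The IgG RIT libraries lay below all TBI and untreated libraries, TBI overlapped untreated, TBI replicate 6 was the lowest of its group, and CD45 RIT libraries had no count. Cdca7l (GRCm38 chr12:117804289-117878706) fell after IgG RIT, with a log2 fold change of -2.01 ± 0.31 (SE, edgeR adjusted p = 0.00312), a call that held whichever library was left out. It was at -0.58 ± 0.26 (SE, edgeR adjusted p = 0.257) after TBI and at least 548-fold lower after CD45 RIT (edgeR adjusted p = 1.38e-06). All 5 genes of this role fell after CD45 RIT, against 18.6% of all tested genes. Of the exon bases of Cdca7l, 19.7% are shared with Dnah11 on the opposite strand.

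More genes were near 0 in CD45 RIT replicate 2 than in replicate 1. In replicate 2, 22 of the 47 genes had 0 to 6 counts with a median of 1, 2 had 14 and 80, and the other 23 had 189 to 2405 with a median of 1249. Within the helicase ring this put Mcm4, Mcm5, Mcm3 and Mcm2 at 0, 2, 5 and 6 counts beside 1657 for Mcm6 and 1763 for Mcm7. By role, under 10 counts were found for 6 of 11 licensing genes, 4 of 7 helicase activators, 6 of 8 polymerase and primase genes, 1 of 9 genes of the clamp group, 1 of 2 lagging strand genes, 1 of 5 nucleotide genes and 3 of 5 chromatin genes. At or under the floor of 3 counts were 18 members, against 15.2% of the 6232 genes that were as abundant in untreated libraries as the lowest member. In replicate 1 there were 3 such members (Pole2, Dtl and Cdca7l, all among the 18) and 3.48% of those genes, and in the other 12 libraries there were 0. The total of replicate 2, 26823400 counts, was above that of replicate 1, 23320200. Counts were found in 17700 genes in replicate 2 and in 20994 in replicate 1. Of all tested genes, 39.7% and 24.4% were at or under the floor in replicates 2 and 1. The cause of the low counts was not tested. Of the 22 genes under 10 counts, 10 passed as lower against untreated, and of the other 25 genes 21 did (18.6% of all tested genes).

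**Figure D5:**
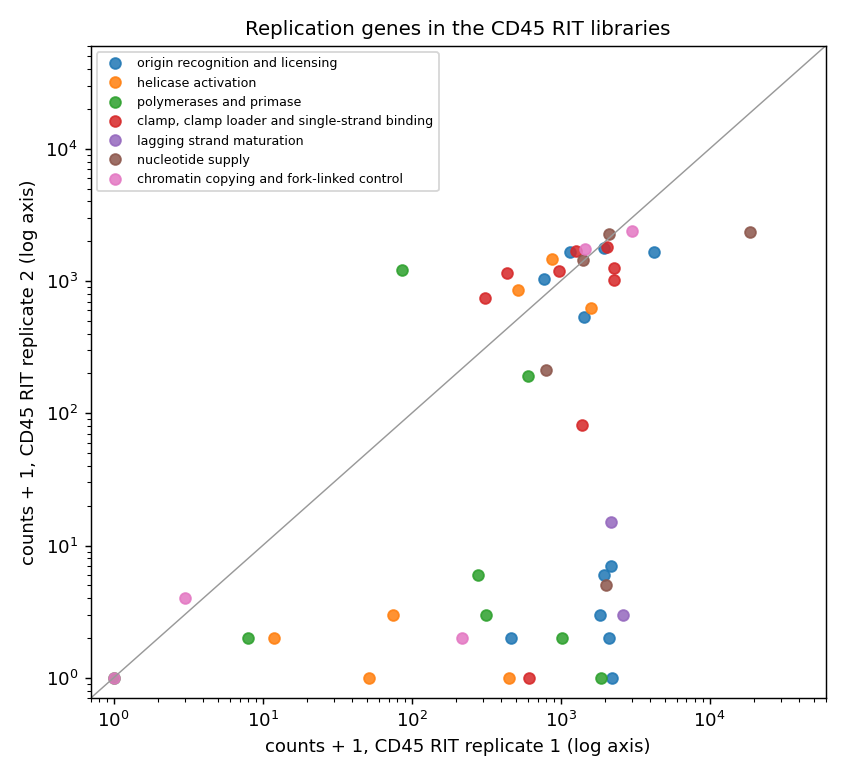
Counts + 1 of the 47 genes in CD45 RIT replicate 1 (horizontal axis) and replicate 2 (vertical axis), both on log axes, coloured by role; the line marks equal counts. Some genes lie near the line, and others with up to 2615 counts in replicate 1 lie at the bottom with 0 to 6 counts in replicate 2.

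Markers of other marrow cells moved with these groups. The 14 erythroid markers summed to 8731 to 15711 CPM untreated, 27428 to 178829 after TBI, 136690 to 145311 after IgG RIT, and 192761 and 47412 in CD45 RIT replicates 1 and 2. In CD45 RIT replicate 2 the globins were present while the erythroid regulators Klf1 and Gata1 had 0 counts, Tfrc 1, Ermap 3 and Epb42 4. The 10 stem and progenitor markers summed to 9396 to 11711 CPM untreated, 102 to 1324 after TBI, 478 to 669.5 after IgG RIT, and 28.9 and 92.0 after CD45 RIT. The 12 stromal and bone markers, such as Cxcl12 and Lepr, summed to 3733 to 9739 CPM untreated, 422 to 2782 after TBI and IgG RIT, and 42359 and 66407 after CD45 RIT, and the 10 macrophage markers to 149 to 208, 24.9 to 53.9, and 2533 and 2333. Vcam1, which stromal cells also express, made up 2475 and 2208 CPM of the last pair. The other 9 macrophage markers summed to 80.7 to 94.1 CPM untreated, 7.90 to 22.2 after TBI and IgG RIT, and 57.7 and 125 after CD45 RIT. Their counts in CD45 RIT replicates 1 and 2 were mixed. Adgre1 had 0 and 0, Cd163 0 and 1, Csf1r 43 and 60, and Cd68 288 and 1495. C1qa had 258 and 0, C1qb 303 and 1173, C1qc 2 and 637, Mertk 282 and 0, and Siglec1 170 and 0. The 10 neutrophil markers came to 2174 to 2952 CPM untreated and at most 339 in treated libraries, the 8 megakaryocyte markers to 321 to 362 and at most 231, and the 10 B and T lineage markers to 621 to 2065 and 139 to 2733. The part of these shifts in the changes of the replication genes was not tested.

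A list of 58 further replication genes gave the surroundings of the pathway. Against untreated, 6 rose and none fell after TBI (0.921% and 3.38% of all tested genes). After IgG RIT 15 rose and 1 fell (5.75% and 10.7%), and after CD45 RIT 2 rose and 19 fell (14.5% and 18.6%). Leaving out the CD45 RIT libraries, the TBI counts were 34 and 1 (8.04% and 7.61%) and the IgG RIT counts 36 and 5 (16.8% and 20.3%). Without scaling factors the IgG RIT counts were 8 and 4 (3.42% and 20.1%). Genes with the largest called change of their class after TBI included Dbf4, the activator of the Cdc7 kinase, at 0.82 ± 0.18, topoisomerase Top2a at 0.73 ± 0.17 and cyclin Ccna2 at 1.24 ± 0.24 (edgeR adjusted p = 0.0224, 0.0333 and 0.0148). After IgG RIT they were the firing factor Donson at 1.67 ± 0.32, the ribonuclease subunit Rnaseh2a at 1.77 ± 0.47, the histone mRNA binder Slbp at 1.24 ± 0.31 and the transcription factor E2f2 at 3.09 ± 0.74 (edgeR adjusted p = 0.00628, 0.0245, 0.0188 and 0.016). Pold4, the small subunit of polymerase delta, was lower after IgG RIT at -1.55 ± 0.42 (SE, edgeR adjusted p = 0.0263) and higher after CD45 RIT at 1.23 ± 0.44 (SE, edgeR adjusted p = 0.0467).

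Samhd1, which breaks down deoxynucleotide triphosphates and so opposes the supply enzymes, rose after CD45 RIT by 3.78 ± 0.28 (SE, edgeR adjusted p = 4.59e-06). Its mean was 733 ± 246 CPM (SD, n = 2) there against 53.3 ± 10.2 CPM (n = 4) untreated and 75.3 ± 16.5 CPM (n = 3) after IgG RIT. Genes with the largest called fall of their class after CD45 RIT were the kinase Cdk2 at -4.33 ± 0.31 (SE, edgeR adjusted p = 3.46e-06), the remodeller Hells at -2.31 ± 0.30 (SE, edgeR adjusted p = 0.000153), and Mcm8, at least 148-fold lower with no count in either library (edgeR adjusted p = 4.18e-06). Chtf8, named by the same rule, had a mean of only 0.208 CPM untreated and no count after CD45 RIT.

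Some members share sequence with other genes. Exon bases were shared with another gene in 17 members, with a gene on the opposite strand in 15, and over more than 10% of exon bases in 8: Fen1 (78.8%, with Gm10143), Gins2 (67.3%, with Gse1), Chaf1a (52.5%, with Ubxn6), Cdca7l (19.7%), Rfc2 (15.1%, with Lat2), Rfc4 (12.7%, with Eif4a2), Orc1 (10.8%, with Gm12743) and Rfc5 (10.7%, with Wsb2). The library kit does not mark strand, so reads from these stretches cannot be told apart, and the values of these 8 genes are uncertain to that extent. The table also lists Tyms-ps, Pcna-ps1 and Pcna-ps2, named as pseudogenes of Tyms and Pcna, and reads shared with them may have been split.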

How the data were processed

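Sorted marrow cells gave RNA that was amplified by SMART-Seq v4 and tagmented by Nextera XT, as the labels' protocols state. A single table of gene counts was deposited by the authors, in whole numbers and with no sign of normalization, beside a column of gene lengths in bases. STAR 2.7.7a, FastQC 0.11.9 and edgeR 3.36.0 are named in the submitters' processing notes, which list build hg38 although the samples are from mice. The coordinates in the table equalled those of GENCODE M21 (GRCm38) for 54587 of 55335 gene identifiers, and gene length equalled the union of exons for 47 of 47 members. The counter and its strand setting are not given in the sources used here. The kits carry no molecular identifiers, so amplification copies were counted as reads, and the floor covers counting error only. Columns were assigned by the library names in the labels, and TBI replicate 2 was not analysed here.

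Tests were run with edgeR 4.0.16 in R 4.3.3. filterByExpr (minimum count 10, minimum total 15) left 21509 genes, TMM factors scaled the libraries, and the 4 groups each had a term in a robust quasi-likelihood fit over all 14 libraries. Benjamini-Hochberg adjusted p-values were taken over all tested genes, with calls under 0.05. The SE is the size of the log2 fold change over the square root of F. A floor of 3 counts per library set the bounds. Alternatives were RLE factors, no scaling factors, no filter, DESeq2 1.42.0, a replicate block, subsets by library number and leaving out each library, and, chosen after seeing the data, a fit with no CD45 RIT library. The fitting steps were tested on simulated data in which 200 genes were changed in 1 group. Against untreated, 90 of the 200 were recovered for TBI and 43 for CD45 RIT. Of the 67 changed 8-fold, 53 and 33 were recovered. Calls of unchanged genes were 4 and 3. Genes were given library by library if on a list of key members or if they had the largest called rise or fall of their role; values of some listed genes are not reported here. The members, lists and markers were chosen with earlier results of these data known.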

Additional observations from a re-analysis of the deposited data

Results flagged for a closer look

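In 9 of 96 gene and group combinations with 4 or 5 libraries, 1 library lay far from the others relative to the group's range; chance gives about 1 in 20, which is 4.8 of 96. TBI replicate 6 was high for 3 genes: Orc6 at 229.8 CPM against 164 to 178 in the other TBI libraries, Rrm2 at 3633 against 1681 to 2164, and Tk1 at 537 against 257 to 326. The same library had the highest erythroid marker sum of its group, 178829 CPM. TBI replicate 4 was high for Cdt1 at 259.5 CPM against 177 to 196 and for Mcm3 at 748 against 651 to 676. TBI replicate 1 was low for Prim2 at 93.6 CPM against 126 to 131. Among untreated libraries, replicate 2 was low for Orc6 at 106 CPM against 119 to 120.1 and high for Rpa3 at 97.8 against 77.6 to 79.2, and replicate 4 was high for Prim1 at 152 against 124 to 127.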

How the results depend on the processing

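Directions of the called members were the same under all alternatives run, and no called member reversed. Counts of calls moved more, and the shares over all tested genes are given above for many of these settings. For TBI against untreated (2 higher, 0 lower), DESeq2 gave 11 higher, libraries numbered 1 to 9 gave 29 and 1, the fit with no CD45 RIT library gave 29 and 1, and leaving out 1 library gave 1 to 25 higher and 0 to 1 lower. For IgG RIT against untreated (15 and 1), no scaling factors gave 2 higher, the fit with no CD45 RIT library 37, and leaving out 1 library 6 to 36 higher and 1 to 3 lower. Lower calls after CD45 RIT ranged from 28 to 45 against untreated (31), from 32 to 47 against IgG RIT (35) and from 31 to 47 against TBI (36) when 1 library was left out; libraries numbered 10 to 16 gave 16 against IgG RIT and 0 against TBI, with fewer samples. For IgG RIT against TBI (0 and 0), DESeq2 gave 3 higher and 1 lower, the fit with no CD45 RIT library 7 and 1, no scaling factors 0 and 1, and leaving out 1 library 0 to 6 and 0 to 1. Replicate numbers did not pair the libraries: of 13 same-number pairs 1 had a correlation of deviations over 0.1 (range -0.09 to 0.14). With the replicate block the TBI count was 0 higher (0.0139% of all tested genes) and the IgG RIT count 9 higher (3.76%). The lower counts after CD45 RIT were 24 against untreated, 28 against IgG RIT and 25 against TBI (11.2%, 11.1% and 9.46%). Uncalled values that changed sign were those of Dut after TBI (-0.077 without scaling factors, -0.056 to 0.14 leaving out 1 library) and after IgG RIT (0.098 with RLE factors, 0.096 with DESeq2, 0.025 with no filter, 0.085 with no CD45 RIT library, -0.20 to 0.082 leaving out 1 library), of Mcm10 (-0.37), Pola1 (-0.0066), Pole (-0.43) and Rfc3 (-0.19) after IgG RIT without scaling factors, and of Rrm2 after CD45 RIT (-2.82 without replicate 1, 0.50 without replicate 2). Where libraries were left out, fewer samples were tested; for the other moves the cause was not tested. Outside CD45 RIT every member was above the floor in every library. CD45 RIT has 2 libraries that differ, so its fold sizes rest on few and unlike values.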
